A study of Homo sapiens with 24 samples.

Results

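The 10 myeloid granule and maturation genes described here are 10 of the 23354 genes in the count table, in 2 acute myeloid leukemia (AML) cell lines without drug and after each of a pair of nucleoside analogs. The members are MPO, ELANE, AZU1, PRTN3, CTSG, LYZ, S100A8, S100A9, CD14 and ITGAM, and all 10 were found in the table by symbol. RNA-seq read counts were analysed for MV4-11 cells, an AML line that carries a KMT2A fusion and a FLT3 internal tandem duplication, and for KG-1a cells, an immature AML line. Both lines are wild type in the labels, grew in the same serum-containing medium, and were left untreated or given 1 uM 8-chloro-adenosine (8CA) or 1 uM 8-amino-adenosine (8AA). RNA was taken at 8 h and at 24 h, the hours of untreated cells being known from sample titles alone, which gave 12 groups of 2 libraries each (replicates A and B, 24 libraries in all). Each line is a single culture model, and no source used here says that replicates came from separate cultures, so the p-values measure only the spread between these libraries, which may be technical.

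Granule proteins of myeloid cells are made in a fixed order as the cells mature. The primary (azurophil) granules are filled at the promyelocyte stage, with myeloperoxidase (MPO) and with a family of serine protease genes: ELANE encodes neutrophil elastase, PRTN3 proteinase 3, CTSG cathepsin G, and AZU1 azurocidin, a relative that has lost its protease activity. Later products include LYZ, which encodes lysozyme and stays on in monocytes, S100A8 and S100A9, which encode the partner chains of calprotectin, and the surface proteins CD14, a lipopolysaccharide co-receptor of monocytes, and ITGAM, the alpha chain of the integrin Mac-1. The transcription factors PU.1 (SPI1), C/EBP alpha (CEBPA), MYB and RUNX1 are known regulators of the azurophil genes.

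AZU1, PRTN3 and ELANE are neighbours. The table places them on the plus strand of chromosome 19, AZU1 at 827831 to 832017, PRTN3 at 840985 to 848175 and ELANE at 852291 to 856246, a span of 28.416 kb. The other serine protease gene, CTSG, is on chromosome 14, on the minus strand at 25042724 to 25045466. These positions are not on hg38 (GRCh38), since 0.401% of the 21956 genes matched by symbol, and no member, start or end at their RefSeq GRCh38 position. The other build in the submitters' processing notes is hg19, against which they were not checked. The promoters of AZU1, PRTN3 and CTSG are printed because AZU1 and its neighbour PRTN3 went apart under 8CA in MV4-11 and CTSG went opposite ways in the lines. They are RefSeq sequences of GRCh38.p14, 300 bases from 250 before to 50 after the annotated start, 5′ to 3′ on the gene's strand, with capitals marking the motif matches that are spelled out after them.
AZU1, chr19:827587-827886, plus strand: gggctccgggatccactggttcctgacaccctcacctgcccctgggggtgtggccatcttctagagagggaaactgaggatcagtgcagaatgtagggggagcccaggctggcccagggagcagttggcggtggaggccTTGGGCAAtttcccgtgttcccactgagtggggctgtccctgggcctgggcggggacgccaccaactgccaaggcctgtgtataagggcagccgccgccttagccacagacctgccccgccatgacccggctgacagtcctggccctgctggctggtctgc
PRTN3, chr19:840749-841048, plus strand: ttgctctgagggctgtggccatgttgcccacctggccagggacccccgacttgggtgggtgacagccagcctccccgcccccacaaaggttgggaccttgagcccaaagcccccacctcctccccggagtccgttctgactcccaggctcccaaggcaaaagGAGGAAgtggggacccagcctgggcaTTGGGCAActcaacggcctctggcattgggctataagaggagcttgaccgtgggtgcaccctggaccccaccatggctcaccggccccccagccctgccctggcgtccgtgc
CTSG, chr14:24576201-24576500, minus strand: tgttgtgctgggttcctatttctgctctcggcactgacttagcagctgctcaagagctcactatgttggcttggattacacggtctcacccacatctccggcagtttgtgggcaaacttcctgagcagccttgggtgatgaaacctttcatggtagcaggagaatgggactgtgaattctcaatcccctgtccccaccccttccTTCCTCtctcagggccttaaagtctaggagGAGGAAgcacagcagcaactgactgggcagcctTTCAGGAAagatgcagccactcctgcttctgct

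Motifs were searched on both strands as exact letters: TTNNGNAA for C/EBP, GAGGAA for PU.1, TAACNG for MYB and TGTGGT for RUNX. Among all 35116 promoters of the same length, 36.8% held the C/EBP letters, 27.9% the PU.1 letters, 20.8% the MYB letters and 13.1% the RUNX letters. The AZU1 promoter held 1 C/EBP match, with its first base at -111 from the start, and 0 PU.1 matches. In PRTN3 there was 1 C/EBP match at -62 and 1 PU.1 match at -88. The C/EBP match had the same letters in AZU1 and PRTN3, TTGGGCAA, which 0.857% of all promoters held on either strand. These letters were picked because the 2 promoters share them, so their low share is a description and no test. CTSG held 1 C/EBP match at 18 and 2 PU.1 matches at -46 and -16. None of these 3 promoters held the MYB letters TAACNG or the RUNX letters TGTGGT. Other spellings of these sites, such as CAACNG, were not searched, so this does not show that a site is absent. A match is a run of letters and does not show that a factor binds there, and 7 of the 10 members had a promoter entry in the table used.

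Sequencing depth was 18633963 to 24520078 reads per library. The 10 members together took 0.368 to 0.534% of the reads in the MV4-11 libraries and 0.00138 to 0.00222% in the KG-1a libraries. After a filter on low counts, 9 members remained for testing in MV4-11 (all but CD14) and 5 in KG-1a (MPO, CTSG, LYZ, S100A9 and ITGAM). A member could pass the filter on its high group alone, so counts over tested members are descriptions. Replicates differed by 1.43 to 5.20 times the counting variance, except for KG-1a with 8AA at 24 h, where the ratio was 12.3, so the results of its members are given below also without each of its libraries. Of 7 stem cell markers 6 passed the filter in KG-1a, CD34 with 6840 to 15723 reads, and so did 5 of 7 T and NK cell markers, CD3D with 3650 to 6390 reads. In MV4-11, 3 of 7 monocytic markers passed (LYZ, CSF1R and CD68), while FCN1 had 0 to 2 reads. Of 7 neutrophilic markers 2 passed there, CSF3R with 802 to 1576 reads and CXCR2 with 393 to 590. CEACAM8, a late granule marker of that list, had 0 reads in every library. Of the 7 stem cell markers 2 passed in MV4-11 (KIT and MSI2). The summed level was 512 to 814 CPM for the stem cell markers and 231 to 369 CPM for the T and NK cell markers in KG-1a, and 2774 to 3894 CPM for the monocytic markers in MV4-11. The part of these other cell type programmes in the members' levels was not tested.

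Levels are given as read counts scaled to library size (CPM) or, to compare genes, as RPKM, which divides CPM by the exon length in the table. All levels and changes are relative to the other RNA of the same library. A change in the total RNA of a cell would not show, so fell and rose refer to this share only. In untreated MV4-11 cells (4 libraries) lysozyme was the highest member, with LYZ at 2168 ± 228 RPKM (SD). PRTN3 followed at 673 ± 68.1, AZU1 at 362 ± 5.85, ELANE at 287 ± 28.7 and CTSG at 255 ± 16.1 RPKM. The ranges of ELANE and CTSG overlapped, and those of the other neighbours among these 5 did not. Far lower came the calprotectin genes, S100A8 at 15.1 ± 3.52 and S100A9 at 14.9 ± 3.71 RPKM, which overlapped each other. MPO, a defining myeloid gene, was at 3.83 ± 0.209 RPKM, below every serine protease gene. ITGAM stood at 0.417 ± 0.0256 RPKM and CD14 at 0.0934 ± 0.0334 RPKM, the latter from 2 to 5 reads per untreated library. The line therefore had a high level of lysozyme and the serine protease transcripts and a low level of MPO and of the late surface markers.

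Untreated KG-1a cells (4 libraries) had a different order on the same RPKM scale. CTSG was highest at 4.20 ± 0.515 RPKM, followed by ITGAM at 2.07 ± 0.301 and S100A9 at 1.30 ± 0.403, whose ranges overlapped. LYZ was at 0.448 ± 0.0642 RPKM, from 11 to 15 reads per library. CD14 at 0.199 ± 0.129, MPO at 0.0800 ± 0.0775 and S100A8 at 0.0511 ± 0.102 RPKM rested on 29, 20 and 2 reads in total, and their ranges overlapped. ELANE, AZU1 and PRTN3 had 0 reads in all 4 untreated libraries. A count of 0 over the group allows up to 0.0376 CPM. Over all 12 KG-1a libraries ELANE stayed at 0 reads, AZU1 reached at most 2 and PRTN3 at most 1.

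**Figure D1:**
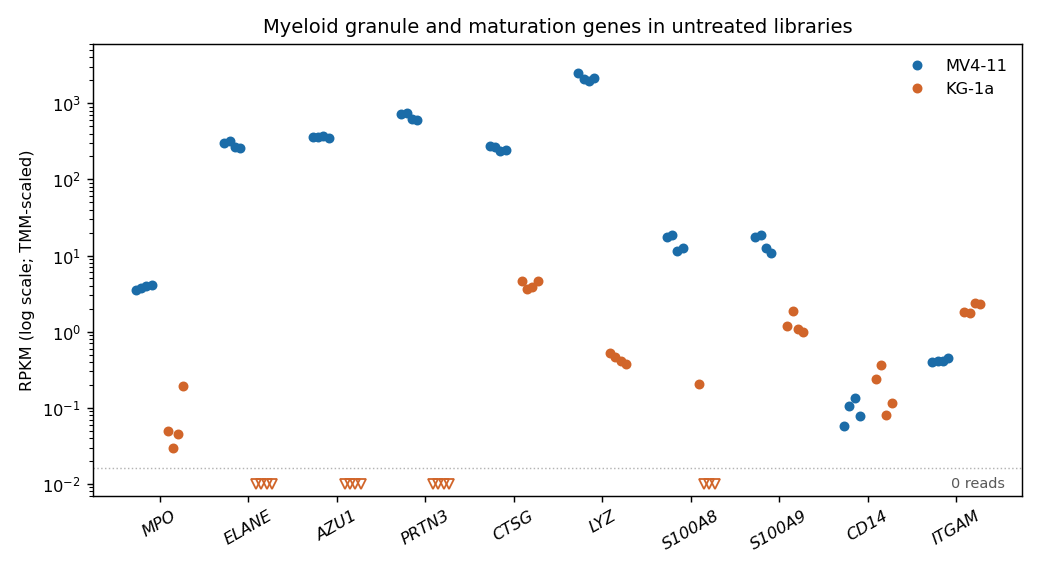
RPKM on a log scale of each member in the 4 untreated libraries of MV4-11 (blue) and KG-1a (orange), 1 point per library, with open triangles for libraries with 0 reads. LYZ and the serine protease genes are far higher in MV4-11, ITGAM is higher in KG-1a (2.07 against 0.417 RPKM), and ELANE, AZU1 and PRTN3 have 0 reads in KG-1a.

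Between the untreated lines, most members were far higher in MV4-11. The floor of 3 reads over the 4 KG-1a libraries puts PRTN3 at least 19964-fold, AZU1 at least 8746-fold and ELANE at least 7003-fold higher in MV4-11. The S100A8 ratio was 313, with a 95% counting interval of 86.4 to 2592 that rests on 2 KG-1a reads. LYZ was higher by 12.24 on the log2 scale (SE 0.0953, edgeR adjusted p = 4.49e-31), CTSG by 5.93 (SE 0.0613), MPO by 5.78 (SE 0.179) and S100A9 by 3.50 (SE 0.162). Going the other way, ITGAM was lower in MV4-11, with a log2 difference of -2.29 (SE 0.107, edgeR adjusted p = 4.91e-16). Every adjusted p-value comes from the quasi-likelihood test of edgeR, corrected by Benjamini and Hochberg's method across the genes that passed the filter, with 0.05 as the threshold. All 9 members tested passed it, but so did 87.4% of all genes. In bulk RNA, fewer cells of a type and less RNA per cell cannot be told apart.

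CD14 was too low to test in either line. MV4-11 libraries held 0 to 5 CD14 reads and KG-1a libraries 3 to 14. With 24 h of 8AA the MV4-11 libraries held 1 and 0 reads, against 5 and 3 without drug, and the KG-1a libraries held 10 and 7, against 3 and 4 without drug. A change of CD14 was not detectable at this depth.

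Time in culture alone was compared between the untreated libraries, since both drugs share them as controls. In MV4-11, 4 of 9 members were lower at 24 h than at 8 h, against 2.16% of all genes lower and 5.54% called either way. Without 1 library the share of all genes lower was 0.261 to 0.761%. S100A9 went from 9.95 and 10.7 CPM (replicates A and B) at 8 h to 7.28 and 6.26 CPM at 24 h, a log2 change of -0.61 (SE 0.127, edgeR adjusted p = 0.0107). S100A8 went from 9.17 and 9.70 to 6.03 and 6.59 CPM, a log2 change of -0.58 (SE 0.111, edgeR adjusted p = 0.00673). Both calprotectin genes were thus lower in each late library than in each early one. ELANE changed by -0.24 (SE 0.0513) and PRTN3 by -0.25 (SE 0.0521) on the log2 scale, with edgeR adjusted p-values of 0.0113 and 0.0106. Each of the 4 calls was lost when MV4-11 untreated replicate B of 8 h was left out, with log2 changes of -0.22 for ELANE, -0.25 for PRTN3, -0.55 for S100A8 and -0.56 for S100A9 and edgeR adjusted p-values of 0.0730, 0.0510, 0.0510 and 0.0773. Without replicate B of 24 h the edgeR adjusted p-values were 0.122 for ELANE, 0.105 for PRTN3 and 0.137 for S100A9, and without replicate A of 24 h they were 0.0527 for PRTN3 and 0.0639 for S100A8. LYZ, at -0.16 with all libraries, went from -0.03 without untreated replicate A of 8 h (edgeR adjusted p = 0.874) to -0.29 without replicate B of 8 h (edgeR adjusted p = 0.0389). Without the filter LYZ and CTSG were called lower in MV4-11 (-0.17 for each, edgeR adjusted p = 0.000448 and 0.0247). In KG-1a, 1 of 5 members was called, against 4.45% of all genes: ITGAM went from 9.51 and 9.28 CPM to 12.2 and 11.9 CPM (log2 change 0.38, SE 0.101, edgeR adjusted p = 0.0439). That call was lost without any 1 of the 4 libraries, with log2 changes of 0.36 to 0.40 and edgeR adjusted p-values of 0.128 to 0.226 for ITGAM.

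Few members differed from untreated cells at 8 h. With 8CA in MV4-11, 0 of 9 members were called, against 10.4% of all genes. By an unadjusted p under 0.05 the count was 1 (AZU1, log2 change 0.11, SE 0.041), and DESeq2 called 0. With 8AA in MV4-11, 2 of 9 were higher, against 13.6% of all genes higher and 29.2% called either way. S100A8 had 13.6 and 15.5 CPM with 8AA against 9.17 and 9.70 CPM without, a log2 change of 0.60 (SE 0.0974, edgeR adjusted p = 0.000292). AZU1 had 361 and 380 CPM against 331 and 328 CPM, a log2 change of 0.14 (SE 0.0410, edgeR adjusted p = 0.0169). Neither gene's treated libraries overlapped the untreated ones. The AZU1 call was lost without untreated replicate A (log2 change 0.15, edgeR adjusted p = 0.0562), untreated replicate B (0.12, 0.102) or 8AA replicate B (0.11, 0.130). CTSG, not called, was called at 0.17 by library size only and by upper-quartile scaling (edgeR adjusted p = 0.00772 and 0.00984). It was also called at 0.13 without the filter, at a mean of at least 1 CPM and with a replicate block (edgeR adjusted p = 0.0412, 0.0469 and 0.0179). With all 24 libraries in the fit it was called at 0.16 (edgeR adjusted p = 0.0320).

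KG-1a cells at 8 h had no called member with either analog. The count was 0 of 5 with 8CA, where 0.881% of all genes were called, and 0 of 5 with 8AA, where 34.7% were. By an unadjusted p under 0.05, edgeR's test gave 0 members with 8CA and 1 with 8AA, and DESeq2 called 0 with each. That 1 was MPO, with 10 and 11 reads in the 8AA libraries against 3 and 2 in the untreated ones, a log2 difference of 1.79 (SE 0.684, edgeR adjusted p = 0.0535).

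After 24 h of 8CA, the azurophil granule genes of MV4-11 fell, apart from AZU1. Of the 9 members tested 6 were lower and 0 higher, against 22.7% of all genes lower and 43.9% called either way. The median log2 change was -0.55 over the 9 members and 0.0022 over all 12800 genes tested.

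ELANE had 246 and 237 CPM in the untreated libraries and 145 and 152 CPM with 8CA, a log2 change of -0.72 (SE 0.0523, edgeR adjusted p = 5.89e-08). PRTN3 went from 693 and 678 CPM to 413 and 447 CPM, a log2 change of -0.69 (SE 0.0526, edgeR adjusted p = 9.14e-08). CTSG went from 219.9 and 224 CPM to 139 and 149 CPM, a log2 change of -0.64 (SE 0.0494, edgeR adjusted p = 9.74e-08). The treated libraries of these 3 protease genes were well below the untreated ones and close to each other. MPO, the peroxidase of the same granule, went from 12.6 and 12.9 CPM to 8.53 and 8.01 CPM, a log2 change of -0.64 (SE 0.0982, edgeR adjusted p = 8.16e-05). For these 4 genes no left-out library and no other setting tried ended the call.

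AZU1, which lies beside PRTN3, did not fall relative to the other RNA. Its libraries held 334 and 322 CPM untreated and 351 and 362 CPM with 8CA, a log2 change of 0.10 with a 95% interval of 0.01 to 0.19 (edgeR adjusted p = 0.0576). The AZU1 change was called as a rise under 5 of the 12 alternatives run on it and was positive in all 12, with values from 0.07 to 0.15.

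Of the later products, S100A8 and LYZ also fell with 8CA at 24 h in MV4-11. S100A8 went from 6.03 and 6.59 CPM to 4.29 and 4.46 CPM, a log2 change of -0.55 (SE 0.124, edgeR adjusted p = 0.00211). LYZ went from 2977 and 3213 CPM to 2682 and 2664 CPM, a log2 change of -0.23 (SE 0.073, edgeR adjusted p = 0.0178). That call was lost by library size only (-0.18, edgeR adjusted p = 0.0689) and by DESeq2 (-0.23, DESeq2 adjusted p = 0.0636). The LYZ change was the smallest of the 6 calls, and it was lost without untreated replicate B (log2 change -0.18, edgeR adjusted p = 0.171), 8CA replicate A (-0.23, 0.0810) or 8CA replicate B (-0.22, 0.0843). S100A9 had a log2 change of -0.33 (SE 0.139, edgeR adjusted p = 0.0651) and went from -0.16 without 8CA replicate A (edgeR adjusted p = 0.462) to -0.51 without 8CA replicate B (edgeR adjusted p = 0.0243). ITGAM had a log2 change of -0.13 with a 95% interval of -0.61 to 0.34.

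**Figure D2:**
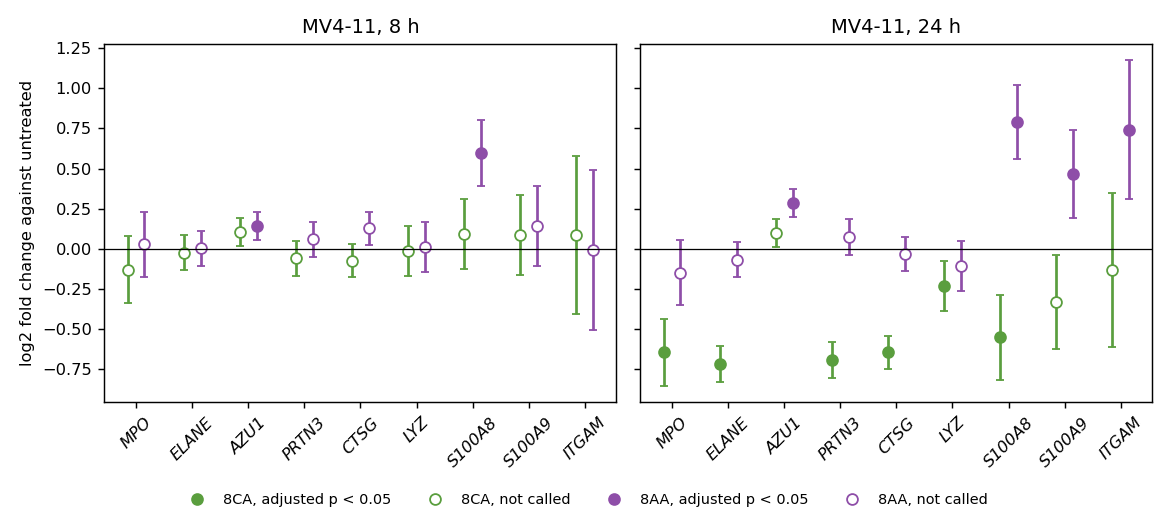
Log2 fold change against untreated MV4-11 cells of the 9 members tested, with 8CA (green) and 8AA (purple), at 8 h (left) and 24 h (right). Bars are 95% intervals from 2 libraries a group and filled points passed the threshold. At 24 h, 6 members are lower with 8CA, ELANE by -0.72, and 4 are higher with 8AA, S100A8 by 0.79.

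With 8AA at 24 h, 0 of the 9 members tested in MV4-11 were called lower and 4 rose, against 13.9% of all genes higher and 29.1% called either way. S100A8 had 10.9 and 11.2 CPM with 8AA against 6.03 and 6.59 CPM untreated, a log2 change of 0.79 (SE 0.108, edgeR adjusted p = 7.47e-05). AZU1 had 404 and 407 CPM against 334 and 322 CPM, a log2 change of 0.29 (SE 0.0409, edgeR adjusted p = 0.000103). In each of these genes both treated libraries were above both untreated ones. ITGAM had 4.09 and 3.51 CPM against 2.12 and 2.37 CPM, a log2 change of 0.74 (SE 0.204, edgeR adjusted p = 0.0124). S100A9 had 8.87 and 10.1 CPM against 7.28 and 6.26 CPM, a log2 change of 0.46 (SE 0.128, edgeR adjusted p = 0.0127). For these 2 genes the groups did not overlap either. By DESeq2 the ITGAM call was lost (0.74, DESeq2 adjusted p = 0.0834). The ITGAM call was lost without untreated replicate A (log2 change 0.66, edgeR adjusted p = 0.0841) or 8AA replicate A (0.61, 0.118), and the S100A9 call without untreated replicate B (0.35, 0.138) or 8AA replicate B (0.37, 0.104). The members not called had log2 changes of -0.15 for MPO, -0.07 for ELANE, 0.07 for PRTN3, -0.03 for CTSG and -0.11 for LYZ. Without the filter LYZ was called lower (-0.10, edgeR adjusted p = 0.0355). The median over the 9 members was 0.07, against 0.0032 over all genes.

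**Figure D3:**
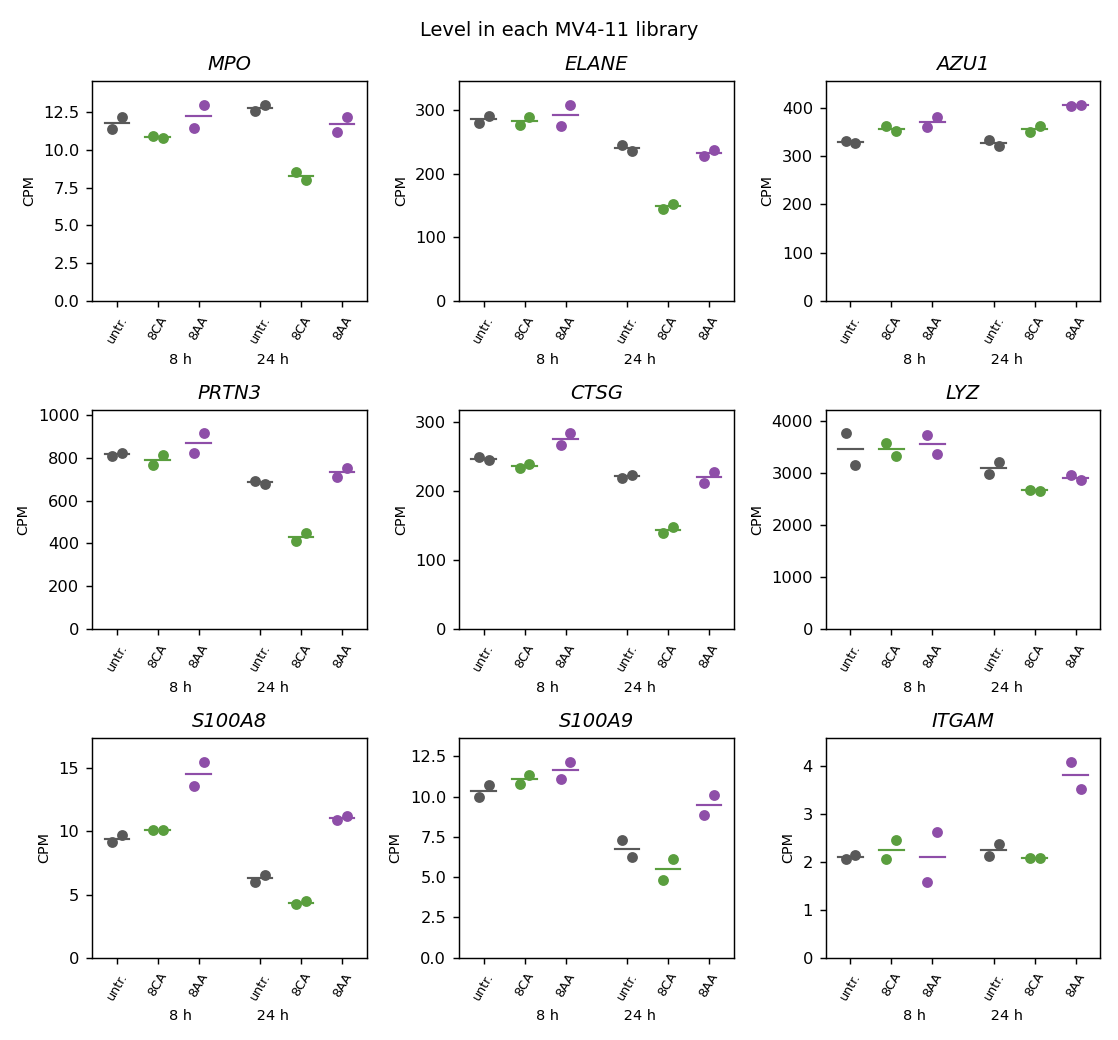
Level in CPM of the 9 members tested in each MV4-11 library, in panels with axes from 0, for untreated (grey), 8CA (green) and 8AA (purple) at 8 h and 24 h. Points are the 2 libraries of a group and lines their mean. At 24 h the 8CA points of ELANE, PRTN3, CTSG and MPO lie below the untreated ones, while those of AZU1 lie above them at 351 and 362 CPM.

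The ratio of AZU1 reads to those of the other serine protease genes does not depend on scaling. Each ELANE read was matched by 1.36 and 1.36 AZU1 reads in the untreated MV4-11 libraries of 24 h, and by 2.42 and 2.38 after 8CA. The ratio to PRTN3 went from 0.482 and 0.474 to 0.851 and 0.810, and the ratio to CTSG from 1.52 and 1.44 to 2.53 and 2.43. With 8AA the ratios at 24 h lay between, at 1.77 and 1.71 to ELANE, 0.569 and 0.541 to PRTN3 and 1.91 and 1.78 to CTSG. The order untreated, 8AA, 8CA held in every library for all 3 ratios at 24 h. The early libraries showed smaller gaps, since at 8 h the ratio to PRTN3 was 0.409 and 0.398 in untreated cells, 0.471 and 0.435 after 8CA and 0.439 and 0.416 after 8AA. These ratios were chosen after the values were seen and are a description. CFD, the complement factor D gene and the next gene after ELANE, changed by -0.28 with 8CA (SE 0.0687, edgeR adjusted p = 0.00344) and by 0.38 with 8AA (SE 0.0677, edgeR adjusted p = 0.000609) on the log2 scale at 24 h. On the other side of AZU1, PLPPR3 changed by -0.24 with 8CA (edgeR adjusted p = 0.00267) and PTBP1 by -0.32 (edgeR adjusted p = 4.58e-05). MED16, beyond CFD, was not called with 8CA (0.15, edgeR adjusted p = 0.0798). Of all genes 22.7% were lower with 8CA there.

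**Figure D4:**
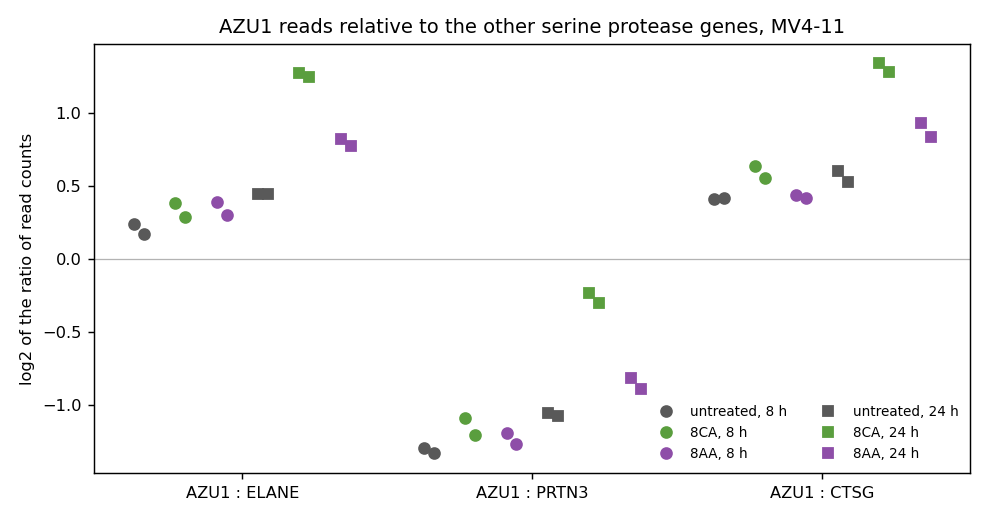
Log2 of the ratio of AZU1 reads to ELANE, PRTN3 and CTSG reads in each MV4-11 library, with circles for 8 h and squares for 24 h, in grey (untreated), green (8CA) and purple (8AA). All 3 ratios are highest with 8CA at 24 h, where log2 of AZU1 to ELANE is 1.28 and 1.25 against 0.44 and 0.44 untreated.

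In KG-1a at 24 h, CTSG went opposite ways with the analogs. With 8CA, 1 of 5 members was higher and 2 lower, against 47.4% of all genes called. CTSG had 74 and 82 reads untreated (3.58 and 4.28 CPM) and 208 and 171 with 8CA (9.30 and 8.13 CPM), a log2 change of 1.16 (SE 0.146, edgeR adjusted p = 1.16e-05). The CTSG groups did not overlap and no setting tried ended that call. S100A9 had 13 and 11 reads untreated and 4 and 4 with 8CA, a log2 change of -1.68 (SE 0.575, edgeR adjusted p = 0.0252). ITGAM went from 12.2 and 11.9 CPM to 10.2 and 8.75 CPM, a log2 change of -0.35 (SE 0.0992, edgeR adjusted p = 0.00908). Both of these calls were weak, and both were lost by DESeq2 (DESeq2 adjusted p = 0.0605 for each). The S100A9 call was lost without any 1 of the 4 libraries, with log2 changes of -1.62 and -1.74 without untreated replicates A and B and -1.63 and -1.72 without 8CA replicates A and B (edgeR adjusted p-values from 0.0673 to 0.105). The ITGAM call was lost without 8CA replicate B (log2 change -0.25, edgeR adjusted p = 0.113). LYZ, at 0.75 (SE 0.354, edgeR adjusted p = 0.0937), went from 0.25 without 8CA replicate B (edgeR adjusted p = 0.712) to 1.14 without 8CA replicate A (edgeR adjusted p = 0.0230). MPO had a log2 change of 0.22 with a 95% interval of -0.93 to 1.36.

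With 8AA at 24 h in KG-1a, 2 of 5 members were higher and 1 lower, against 51.9% of all genes called. MPO had 54 and 37 reads (2.16 and 1.75 CPM) against 3 and 12 untreated (0.145 and 0.626 CPM), a log2 change of 2.37 (SE 0.384, edgeR adjusted p = 9.40e-05). The untreated MPO replicates differed from each other by several fold, yet both were below both treated ones. Without untreated replicate A the MPO change was 1.63 (edgeR adjusted p = 0.00295) and without untreated replicate B it was 3.71 (edgeR adjusted p = 6.72e-05). LYZ had 30 and 23 reads against 13 and 11, a log2 change of 0.92 (SE 0.340, edgeR adjusted p = 0.0324). That call was lost by DESeq2 (0.93, DESeq2 adjusted p = 0.154) and with all 24 libraries in the fit (0.92, edgeR adjusted p = 0.0590). CTSG had 2.36 and 2.41 CPM against 3.58 and 4.28 CPM, a log2 change of -0.71 (SE 0.184, edgeR adjusted p = 0.00405). ITGAM, at 0.12 (SE 0.0935), and S100A9, at -0.54 (SE 0.471), were not called. Without 8AA replicates A and B these were 0.18 and 0.07 for ITGAM and -0.50 and -0.58 for S100A9. The 2 libraries of this group stood apart from each other over all genes. Without 8AA replicate A the log2 changes were 2.19 for MPO, -0.70 for CTSG and 0.84 for LYZ (edgeR adjusted p = 0.000268, 0.0149 and 0.115), and without 8AA replicate B they were 2.50, -0.73 and 0.99 (edgeR adjusted p = 2.10e-05, 0.00897 and 0.0513). The LYZ call was thus lost without either, and also without untreated replicate A (0.98, edgeR adjusted p = 0.102) or B (0.86, 0.130), and the CTSG call was lost without untreated replicate B (-0.59, edgeR adjusted p = 0.0503).

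**Figure D5:**
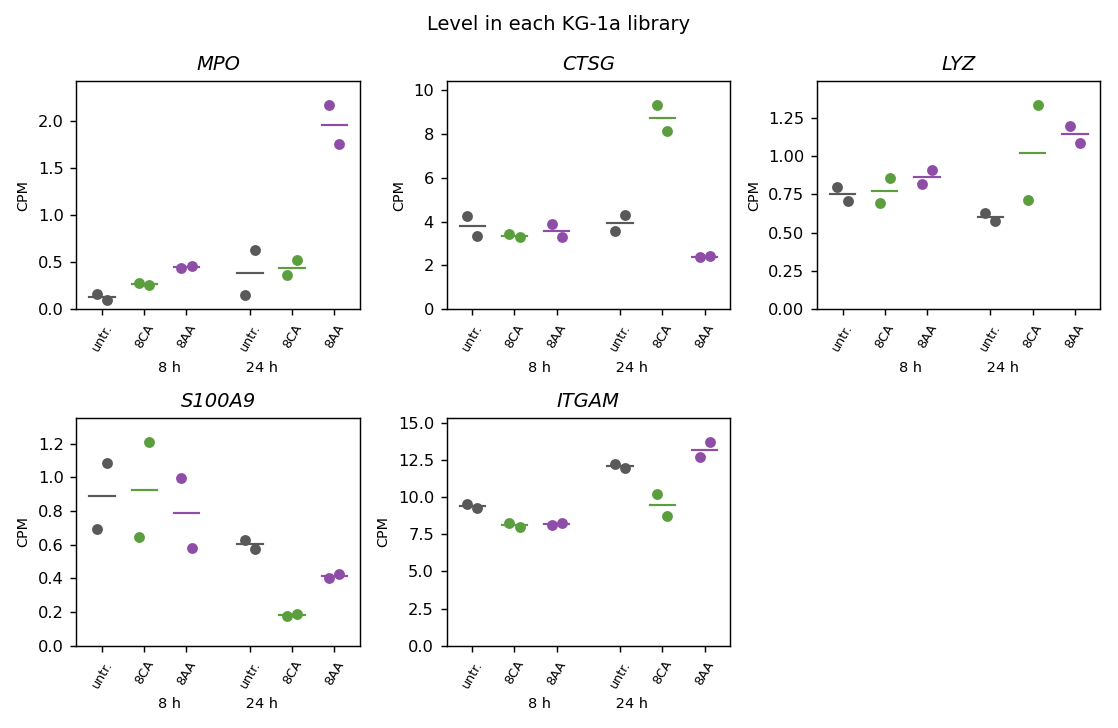
Level in CPM of the 5 members tested in each KG-1a library, in panels with axes from 0, for untreated (grey), 8CA (green) and 8AA (purple) at 8 h and 24 h. Points are the 2 libraries of a group and lines their mean. At 24 h CTSG is above untreated with 8CA (9.30 and 8.13 CPM) and below it with 8AA (2.36 and 2.41 CPM), and MPO is highest with 8AA.

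8CA and 8AA are adenosine analogs that differ in the group on carbon 8 of the base, a chlorine in the former and an amino group in the latter. This 1 pair of compounds was compared directly at the same dose in 4 settings of line and time. In MV4-11 at 24 h, 8 of 9 members were higher with 8AA than with 8CA, against 11.7% of all genes higher and 21.2% called either way. The log2 difference was 1.34 for S100A8 (SE 0.113, edgeR adjusted p = 7.42e-07), 0.77 for PRTN3 (SE 0.0526, edgeR adjusted p = 8.76e-08) and 0.65 for ELANE (SE 0.0524, edgeR adjusted p = 4.42e-07). It was 0.61 for CTSG (SE 0.0494) and 0.50 for MPO (SE 0.0996). S100A9 differed by 0.79 (SE 0.131), ITGAM by 0.87 (SE 0.203) and AZU1 by 0.19 (SE 0.0407). Only LYZ of the 9 was not called, with a difference of 0.12 and a 95% interval of -0.03 to 0.28. Without the filter LYZ was called too (0.11, edgeR adjusted p = 0.0243). The AZU1 call was lost without 8CA replicate A (0.16, edgeR adjusted p = 0.0729), and the ITGAM call without 8CA replicate A (0.87, 0.0555) or 8AA replicate A (0.75, 0.0690).

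At 8 h in MV4-11, 2 of 9 members were higher with 8AA than with 8CA, against 2.96% of all genes higher and 6.66% called either way. They were S100A8, by 0.51 on the log2 scale (SE 0.0961, edgeR adjusted p = 0.00489), and CTSG, by 0.20 (SE 0.0483, edgeR adjusted p = 0.0209). The S100A8 call was lost without 8AA replicate B (0.42, edgeR adjusted p = 0.0600), and the CTSG call without 8AA replicate B (0.17, 0.107), 8CA replicate A (0.19, 0.107) or 8CA replicate B (0.22, 0.0587). ELANE differed by 0.03 with a 95% interval of -0.08 to 0.14. In KG-1a at 8 h, edgeR's test called 0 of 5 members, 0 at an unadjusted p under 0.05 and 0 by DESeq2, against 30.4% of all genes. The interval for KG-1a CTSG was -0.26 to 0.47. At 24 h in KG-1a 3 of 5 members differed, against 42% of all genes: MPO was higher with 8AA by 2.15 (SE 0.362, edgeR adjusted p = 0.000213), ITGAM higher by 0.47 (SE 0.0959, edgeR adjusted p = 0.00103) and CTSG lower, at -1.87 (SE 0.156, edgeR adjusted p = 1.83e-07). These 3 KG-1a calls held without either 8AA library, with values of 1.98 and 2.29 for MPO, 0.53 and 0.42 for ITGAM and -1.86 and -1.89 for CTSG.

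The response of a member was compared between the lines for the 5 members tested in both. At 8 h, edgeR's test called 0 of 5 with 8CA, against 1.15% of all genes, and 0 of 5 with 8AA, against 11.1%. By an unadjusted p under 0.05 these counts were 0 and 1 (MPO), and DESeq2 called 0 in each. At 24 h with 8CA, 1 of 5 differed, against 11.2% of all genes. That was CTSG, for which the MV4-11 response minus the KG-1a response was -1.78 on the log2 scale (SE 0.137, edgeR adjusted p = 3.76e-09): it fell in MV4-11 and rose in KG-1a. With 8AA, 3 of 5 differed, against 22.3% of all genes. The difference for MPO was -2.50 (SE 0.352, edgeR adjusted p = 1.23e-05), which came to -1.77 and -3.84 without KG-1a untreated replicates A and B and to -2.32 and -2.71 without KG-1a 8AA replicates A and B. For CTSG it was 0.70 (SE 0.173, edgeR adjusted p = 0.00415), and it was not called without KG-1a untreated replicate B (0.57, edgeR adjusted p = 0.0607). Without KG-1a 8AA replicates A and B the CTSG difference was 0.69 and 0.64 (edgeR adjusted p = 0.0260 and 0.0278). For ITGAM it was 0.64 (SE 0.210, edgeR adjusted p = 0.0301), and that call was lost without any of 6 libraries in turn, with values of 0.52 to 0.72 and edgeR adjusted p-values of 0.0517 to 0.160. Those 6 for ITGAM were all 4 untreated libraries of 24 h and replicate A of the 8AA libraries of each line. The ITGAM call was also lost by DESeq2 (0.61, DESeq2 adjusted p = 0.104) and without the filter (0.57, edgeR adjusted p = 0.0596). LYZ, not called, was called by DESeq2 (-1.04, DESeq2 adjusted p = 0.0264) and without the filter (-1.09, edgeR adjusted p = 0.0113). Its KG-1a libraries held 11 to 30 reads. Without KG-1a 8AA replicate B the ITGAM difference was 0.62 (edgeR adjusted p = 0.0468).

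The response at 24 h was also compared with that at 8 h. With 8CA in MV4-11, 5 of 9 members had a lower response at 24 h, against 9.83% of all genes lower and 16.3% called either way. The difference was -0.69 for ELANE (SE 0.0731, edgeR adjusted p = 2.98e-05), -0.64 for PRTN3 (SE 0.0739, edgeR adjusted p = 5.78e-05) and -0.57 for CTSG (SE 0.0691, edgeR adjusted p = 7.40e-05). S100A8, at -0.64 (SE 0.162, edgeR adjusted p = 0.0131), and MPO, at -0.52 (SE 0.139, edgeR adjusted p = 0.0183), were the other 2. DESeq2 called neither S100A8 nor MPO (DESeq2 adjusted p = 0.0774 and 0.111). The S100A8 call was lost without replicate B of the 24 h untreated or replicate A of the 24 h 8CA libraries (-0.57 and -0.60, edgeR adjusted p = 0.0653 and 0.0611). The MPO call was lost without replicate A of the 8 h untreated or 8CA libraries or replicate B of the 24 h untreated or 8CA libraries (-0.46 to -0.49, edgeR adjusted p = 0.0539 to 0.0658). AZU1 differed by -0.01 with a 95% interval of -0.13 to 0.12. LYZ, at -0.22, went from -0.08 without untreated replicate B of 8 h (edgeR adjusted p = 0.619) to -0.35 without untreated replicate A of 8 h (edgeR adjusted p = 0.0213). Without the filter this LYZ difference was called (-0.20, edgeR adjusted p = 0.00347). With 8AA in MV4-11, edgeR's test called 0 of 9 members, 3 at an unadjusted p under 0.05 (AZU1, CTSG and ITGAM) and 0 by DESeq2, against 4.63% of all genes. In KG-1a 1 of 5 differed with 8CA, against 23.9% of all genes: CTSG, by 1.33 (SE 0.230, edgeR adjusted p = 0.000716). S100A9 there, at -1.70, went from -1.20 without 8CA replicate B of 8 h (edgeR adjusted p = 0.291) to -2.11 without 8CA replicate A of 8 h (edgeR adjusted p = 0.0482). With 8AA in KG-1a the count was 0 of 5 by edgeR's test, 2 at an unadjusted p under 0.05 (CTSG and ITGAM) and 0 by DESeq2, against 18.3%. Without 8AA replicate A or B of 24 h the share of all genes was 30.9% or 23.6% (10.5% without 8AA replicate A of 8 h), and the differences were -0.63 and -0.66 for CTSG (edgeR adjusted p = 0.109 and 0.0995) and 0.36 and 0.25 for ITGAM (edgeR adjusted p = 0.0839 and 0.264).

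Among 74 other genes of the granule and phagocyte pathways, 50 passed the filter in MV4-11 and 36 in KG-1a. With 8CA at 24 h in MV4-11, 7 were higher and 22 lower, with a median log2 change of -0.19. Of all genes 22.7% were lower and 43.9% called either way there, and the share called among receptors and integrins was close to the latter. Of 12 azurophil granule partners tested, 7 were lower, among them RNASE2, a granule ribonuclease (-0.90, SE 0.064), SERPINA1, the elastase inhibitor alpha-1 antitrypsin (-0.57, SE 0.130), SRGN, the granule proteoglycan core (-0.45, SE 0.0507), and CTSC, which activates the serine proteases (-0.37, SE 0.0438). The 1 higher was SERPINB1, an inhibitor of those proteases (0.35, SE 0.0531). All 4 other S100 genes tested were lower (S100A4 by -0.49, SE 0.0541), as were 4 of 6 phagocyte oxidase genes (CYBB by -0.54, SE 0.196). Receptors and integrins split, with 4 of 17 higher and 4 lower. ITGB2, the beta chain that pairs with ITGAM, was at -0.16 (SE 0.0563). Of the 15 specific and gelatinase granule genes, which mark later stages, 1 was tested (CHI3L1) and it was not called. The ITGB2 call was lost without any 1 of the 4 libraries (-0.13 to -0.19), and the CYBB call without untreated replicate A (-0.60), untreated replicate B (-0.47) or 8CA replicate A (-0.41).

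With 8AA at 24 h in MV4-11, 14 of these 50 genes were higher and 5 lower, with a median of 0.05, against 13.9% of all genes higher and 29.1% called either way. Receptors and integrins had the most, with 9 of 17 higher: CSF3R, the G-CSF receptor (0.58, SE 0.0582), ITGAX, a sister chain of ITGAM (0.53, SE 0.145), and TYROBP, a signalling adaptor (0.51, SE 0.0806). FCGR1A, an Fc receptor, was lower at -0.35 (SE 0.0895), and ITGB2 at -0.20 (SE 0.0566). The calls of FCGR1A (-0.33 and -0.33) and ITGB2 (-0.18 and -0.13) were lost without untreated replicate B or 8AA replicate A, and that of ITGAX without untreated replicate A (0.49), untreated replicate B (0.56) or 8AA replicate A (0.42). In KG-1a at 24 h, 7 of 36 were higher and 8 lower with 8CA, among them CST7, which encodes cystatin F (1.10, SE 0.079), and 11 higher and 8 lower with 8AA, led by the lysosomal CD68 (1.22, SE 0.216). Both counts are near the shares of all genes called, 47.4% with 8CA and 51.9% with 8AA. CST7, like CTSG, was lower with 8AA in KG-1a (-0.58, SE 0.0879). Without 8AA replicates A and B the changes were 0.95 and 1.42 for CD68 and -0.74 and -0.46 for CST7.

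The known regulators of these genes were present in MV4-11 and partly in KG-1a. SPI1 was at 267 ± 12.1 CPM in untreated MV4-11 and 6.86 ± 0.835 CPM in untreated KG-1a (SD, 4 libraries each), and CEBPA at 266 ± 21.1 and 79.6 ± 5.17 CPM. MYB was at 653 ± 4.35 and 388 ± 22.1 CPM. RUNX1 was at 485 ± 22.0 and 463 ± 16.4 CPM and was not called between the lines (log2 difference 0.07, edgeR adjusted p = 0.109). With 8CA at 24 h in MV4-11, 3 of 10 regulators tested were lower, CEBPA by -0.34 (SE 0.0520), SPI1 by -0.18 (SE 0.0529) and KLF4 by -2.05 (SE 0.255), and 2 were higher, RUNX1 by 0.27 (SE 0.0603) and MYB by 0.12 (SE 0.0404), against 43.9% of all genes called. With 8AA at 24 h in MV4-11, 1 of the 10 was called, against 29.1% of all genes: CBFB, the RUNX1 partner, at -0.32 (SE 0.109). CEBPB, not called with 8AA, was called lower without untreated replicate A (-0.28), and KLF4 without untreated replicate B (-0.71). With 8CA, CEBPB was called higher without untreated replicate B (0.24). The SPI1 call was lost without untreated replicate A (-0.15) or 8CA replicate A (-0.11), the MYB call without either untreated library or 8CA replicate A (0.09 to 0.12), and the CBFB call without any 1 of the 4 libraries (-0.24 to -0.41). In KG-1a CEBPB was higher with 8CA at 24 h (1.31, edgeR adjusted p = 4.17e-08) and lower with 8AA (-0.47, edgeR adjusted p = 0.00206), where leaving out 8AA replicates A and B gave -0.61 and -0.36.

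The genes most like each member across the 12 libraries of a line were found by Pearson's correlation of log2 CPM, as a description. All members are read from the same libraries, so depth and library composition are shared. In MV4-11 the nearest gene to PRTN3 was CTSG (r = 0.988), followed by IGFBP7 and ELANE (both r = 0.986). ELANE was nearest to HSPB1 (r = 0.988). AZU1 had no other member among its 3 nearest, which were PLD3 (r = 0.955), PSAP (r = 0.952) and SERPINF1 (r = 0.944). Neither did MPO, LYZ, S100A8, S100A9 and ITGAM have another member among their 3 nearest. S100A8 was nearest to S100A6 (r = 0.979), MPO to DBI (r = 0.966), LYZ to SPCS1 (r = 0.954), S100A9 to ACADVL (r = 0.978) and ITGAM to GARNL3 (r = 0.876). In KG-1a CTSG was nearest to SARS (r = 0.973), SHMT2 (r = 0.959) and WARS (r = 0.958), the first and last of which encode tRNA synthetases. MPO there was nearest to HDAC11 (r = 0.954) and ITGAM to SYK (r = 0.952).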

How the data were processed

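Total RNA of the 24 libraries was sequenced, and the authors deposited 1 table of raw read counts per gene. The submitters' processing notes name Trimmomatic, STAR 2.6.0, HTSeq 0.11.1 and edgeR and the builds hg19 and hg38, without their roles. Strand use in the counting is not given in the sources used here. Groups came from the labels and, for untreated hours, from sample titles. Depth was 18633963 to 24520078 reads per library, and intervals and floors cover counting error only.

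Counts were analysed in R 4.3.3 with edgeR 4.0.16 (limma 3.58.1): TMM scaling, filterByExpr with a minimum count of 10, and the quasi-likelihood test, whose p-values were adjusted over all genes of the fit (Benjamini-Hochberg, threshold 0.05). Drug, time and compound comparisons used the 12 libraries of a line. The untreated lines and the difference of responses between lines used all 24. Printed CPM and RPKM use TMM factors of the 24 libraries, and RPKM the exon length in the table. The scripts were tested on simulated data. Both drugs share the untreated libraries of their line and time, so their results are not independent.

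The members and gene lists were chosen with earlier results of these data known. Named genes are all members and, of the lists, a fixed set of partners and regulators, up to 4 further genes per direction with the largest change, and the 3 genes most correlated with a member. Alternatives were other scaling (DESeq2 1.42.0 size factors, library size, upper quartile), no filter or a mean of at least 1 CPM, a replicate block, all 24 libraries in 1 fit, the DESeq2 Wald test, and leaving out each library. CD14 was too low to test.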

Additional observations from a re-analysis of the deposited data

Results flagged for a closer look

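The results given here stand out because the response to a drug differed between the lines or between the times by a test of that difference (edgeR, adjusted p under 0.05). Groups hold 2 libraries, too few for a check of single libraries within a group.

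Between the lines, as MV4-11 response minus KG-1a response on the log2 scale at 24 h, CTSG differed by -1.78 with 8CA. With 8AA, MPO differed by -2.50, CTSG by 0.70 and ITGAM by 0.64. The MPO value rests on KG-1a untreated libraries with 3 and 12 reads.

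Between the times, as the 24 h response minus the 8 h response to 8CA, the difference in MV4-11 was -0.52 for MPO, -0.69 for ELANE, -0.64 for PRTN3, -0.57 for CTSG and -0.64 for S100A8. In KG-1a it was 1.33 for CTSG.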

How the results depend on the processing

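Of 1977 values of members under the alternatives, 0 reversed a called direction, 66 lost a call and 31 gained one. For the other named pathway genes, 125 of 2279 values lost a call and 42 gained one, and 0 reversed. Scaling moved the median change of all genes by at most 0.0945 on the log2 scale. The count of called members with 8CA in MV4-11 at 8 h went from 0 to 1 by library size only and by upper-quartile scaling. With 8AA in KG-1a at 8 h it went from 0 to 1 by library size only, without the filter and with all 24 libraries, and the difference between lines there from 0 to 1 without the filter. With 8AA in KG-1a at 24 h it went from 3 to 1 at a mean of at least 1 CPM, where MPO and LYZ were not tested. For untreated KG-1a over time it went from 1 to 0 with all 24 libraries and by DESeq2. DESeq2 gave 3 in place of 5 for the time difference of 8CA in MV4-11, and 1 in place of 3 for 8CA in KG-1a at 24 h. The cause was not tested.

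Leaving out 1 library gave 1 to 2 called members for 8AA in MV4-11 at 8 h, 1 to 3 for 8CA and 1 to 2 for 8AA in KG-1a at 24 h, and 0 to 2 for 8AA against 8CA in MV4-11 at 8 h. It gave 1 to 3 for the line difference of 8AA at 24 h, 3 to 5 and 1 to 2 for the time difference of 8CA in MV4-11 and KG-1a, and 1 to 4 and 0 to 0 for untreated MV4-11 and KG-1a over time. A group left with 1 library was assumed to vary like the others.

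Whether replicate letters pair the samples is unclear: deviations of same-lettered libraries correlated at -0.117 to 0.159 in MV4-11, over 0.1 in 6 of 15 pairs of groups, all 3 pairs among the 8 h groups included, and at -0.0846 to 0.161 in KG-1a, over 0.1 in 2 of 15. With a replicate block the members called were 8 in place of 6 for 8CA in MV4-11 at 24 h, 3 in place of 2 for 8AA at 8 h and 5 in place of 4 for untreated MV4-11 over time, and the block changed no other count of members. The members gained were AZU1 (0.10, edgeR adjusted p = 0.0293) and S100A9 (-0.33, 0.0478) with 8CA at 24 h, and CTSG with 8AA at 8 h (0.13, 0.0179) and over time (-0.16, 0.0177). Over all genes, the block gave 1369 calls in place of 853 for 8AA against 8CA in MV4-11 at 8 h (DESeq2 556), 205 in place of 112 for 8CA in KG-1a at 8 h (no filter 272, all 24 libraries 184), 1123 in place of 593 for the time difference of 8AA in MV4-11 (no filter 952) and 1321 in place of 709 for untreated MV4-11 over time (no filter 1122, DESeq2 469). Without the filter, calls were 246 in place of 162 for the line difference of 8CA at 8 h and 936 in place of 566 for untreated KG-1a over time. Leaving out 1 library moved the all-gene count by over 1.5 times in 16 of 23 comparisons, mostly down. In those just named, 853 became 365 to 468, 112 became 28 to 37, 593 became 136 to 445, 709 became 153 to 287, 162 became 82 to 117 and 566 became 60 to 209. The time difference of 8AA in KG-1a went from 2330 to between 1358 and 3981, the highest without 8AA replicate A of 24 h. Depth limits the KG-1a values of MPO, LYZ and S100A9, which rest on 2 to 54 reads per library.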
